A study of Homo sapiens with 14 samples.

Results

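Splicing factors are the proteins that carry out or steer the removal of introns, and 73 of the 58434 gene symbols in the count table belong to the SR, hnRNP, SF3, snRNP, U2AF and PRPF families described here. They were found by the form of the symbol: SRSF with a number, HNRNP, SF3A or SF3B with a number, SNRPA to SNRPG, U2AF, and PRPF with a number. That search matched 257 symbols, of which 183 were left out as pseudogenes and 1 HNRNP symbol was left out by name. The 73 members are 12 SR proteins, 24 hnRNP proteins, 9 SF3 subunits, 11 snRNP proteins, 4 U2AF genes and 13 PRPF genes.

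The study sequenced RNA of MDA-MB-231 cells, a breast cancer line, to ask which mRNAs need DAP5, a relative of the initiation factor eIF4G, for their translation. The cells carried a doxycycline-inducible shRNA against DAP5 (shDAP5) or a non-silencing construct (shNSi), and both kinds received 1 µg/ml doxycycline for 6 days. From 2 cultures of each, cytoplasmic lysates gave total mRNA, light polysomes (mRNA with few ribosomes) and heavy polysomes (mRNA with many ribosomes). A moderate fraction is present for shNSi cells alone, which makes 14 libraries in 7 groups of 2.

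Depth was even across the libraries. The total mRNA libraries held 28056227 and 27652311 counts in shNSi cells, and 25965424 and 27812007 in shDAP5 cells. The light polysome libraries held 25899838 and 28082333 counts in shNSi cells, and 27941831 and 26571931 in shDAP5 cells. The heavy polysome libraries held 28092151 and 30050488 counts in shNSi cells, and 27482061 and 27825912 in shDAP5 cells. The moderate libraries of shNSi cells held 28532504 and 30795910. The labels leave a limit on what is compared, because the shDAP5 light libraries are titled light but carry, in their description, the code that shNSi cells have on moderate libraries. The shDAP5 total libraries are titled total polysome, and were used as total mRNA because their code is that of the total libraries.

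The spliceosome is built on each intron from small nuclear ribonucleoproteins (snRNPs). Each is an RNA with a ring of Sm proteins, or in U6 of LSM proteins, and further proteins of its own. U2AF and the SF3 complexes bring the U2 snRNP to the branch site near the end of the intron, and PRPF proteins hold the later U4, U5 and U6 particles together and remodel them. SR and hnRNP proteins bind exons and introns and shift the choice of splice sites, SR proteins mostly as activators and hnRNP proteins often as repressors.

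The cells carried the markers of this mesenchymal line. In the 4 total mRNA libraries VIM lay between 3958 and 5230 CPM (counts scaled to library size with edgeR's TMM factors), AXL between 408 and 925, LGALS1 between 547 and 971, CD44 between 187 and 623, and SPARC between 116 and 239. Of 6 luminal or epithelial genes PGR was at 0 counts in each of these libraries, CDH1 reached 0.245 CPM and ESR1 0.385, while ERBB2 lay between 41.5 and 67.4. GATA3 lay between 10.4 and 13.0 and EPCAM between 3.68 and 4.93. The 5 mesenchymal genes summed to 7322 and 7566 CPM in shNSi cells and to 5640 and 5891 in shDAP5 cells, and the 6 others to 69.8 and 84.6 against 57.5 and 63.4. Their part in the results on splicing factors was not tested.

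EIF4G2, which encodes DAP5, was silenced. Its total mRNA stood at 1391 and 1358 CPM in the shNSi cultures and at 525 and 730 in the shDAP5 cultures, so the groups did not overlap. Total mRNA of 3334 of 14992 genes was likewise lower in both shDAP5 cultures. That of EIF4G2 fell by 1.11 on the log2 scale (standard error 0.18, edgeR adjusted p = 0.0172, adjusted over 14992 genes). With a block for the replicate number (replicate block) the change was −1.12. In 1 fit of all 14 libraries it was −1.13 and no longer passed, with an adjusted p of 0.443, and without shDAP5 culture 1 it was −0.90 with an adjusted p of 0.680. The heavy polysome level of EIF4G2 had a change of −0.86 with an edgeR adjusted p of 0.0691. Its light polysome level had a change of −1.33, where edgeR gave 0.430.

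Levels of the splicing factors in total mRNA spanned a wide range once divided by transcript length. Averaged over the 4 total libraries, the Sm protein gene SNRPD2 was at 451 CPM per kilobase of transcript. The next were HNRNPC at 405, a binder of uridine-rich introns, and HNRNPA2B1 at 345. The U5 scaffold PRPF8 was at 59.6 CPM per kilobase, the branch-site protein SF3B1 at 29.4, and PRPF40B, a U1-associated protein, at 1.91. These levels differ between genes of 1 complex whose proteins are present in equal copies, as for SNRPD2 and its neighbour in the Sm ring SNRPD1, at 37.5 CPM per kilobase. The GENCODE transcript of SNRPD1 used for that length has 4909 bases, against 901 for SNRPD2, so the order rests on the transcript chosen.

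6 members were too low to pass edgeR's count filter in any comparison, leaving 67 of the 73, while 68 were tested with no filter. SRSF12, HNRNPCL4 and U2AF1L5 had no count in any library, HNRNPCL2 had 1 count in 1 library, and HNRNPCL1 had at most 3 counts in a library. U2AF1, the subunit that contacts the AG at the end of the intron, had 1 count in all and stood at 0 in 13 libraries. Its coding sequence is identical to that of U2AF1L5, with 0 differing bases over 720, and whether this accounts for its missing counts was not tested. The first 60 coding bases of both genes are shown as an example of this identity. They come from GENCODE v29 transcripts on GRCh38, with the start codon in capitals; U2AF1 lies at chr21:43092956-43107587 and U2AF1L5 at chr21:6484623-6499261, both on the minus strand. The sources used here name hg19 and do not say how reads over such genes were assigned or which annotation held U2AF1L5.
U2AF1: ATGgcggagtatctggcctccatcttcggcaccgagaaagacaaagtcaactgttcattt
U2AF1L5: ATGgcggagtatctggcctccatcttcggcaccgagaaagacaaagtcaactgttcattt

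Total mRNA answers whether silencing DAP5 altered the amount of each splicing factor mRNA. No member passed the test in edgeR (0 of 67 at an adjusted p under 0.05), where 0.354% of all genes tested did. At an unadjusted p under 0.05 the count was also 0 of 67, against 12.0% of all genes, and DESeq2 and limma called 0 members. The log2 changes ran from −0.35 for HNRNPA3, an mRNA-binding hnRNP protein, to 0.41 for PRPF39, a U1-associated protein. HNRNPA3 stood at 318 and 398 CPM in shNSi cells and at 252 and 302 in shDAP5 cells. PRPF39 stood at 25.5 and 25.1 CPM in shNSi cells and at 30.0 and 36.1 in shDAP5 cells. The median over members was 0.02, beside 0.01 over all genes tested. In bulk libraries fewer cells with an mRNA and less of it per cell cannot be told apart. With 2 cultures against 2, the smallest p of an exact two-sided permutation test is 0.333, and edgeR's p draws on the variation of all genes.

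The place of each mRNA on the gradient of control cells came from the heavy against the light polysomes of shNSi cells. Of 67 members 35 were higher in heavy polysomes (52.2%, where 29.8% of all genes were), and 12 were higher in light polysomes (17.9%, against 32.2%). Without TMM scaling these counts were 30 and 14, beside 3310 and 5970 of 14798 genes. The median of all genes moved from −0.13 to −0.49. The longest-coding families sat in heavy polysomes and the small snRNP proteins in light polysomes. The median log2 ratio of heavy to light was 2.16 for the 9 SF3 genes, 1.53 for the 13 PRPF genes and 1.45 for the 21 hnRNP genes tested. It was −2.15 for the 7 Sm proteins among the snRNP genes and −0.09 for the 11 SR genes tested, the latter 0.02 with DESeq2.

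Single genes spanned a wide part of that scale. HNRNPM, which binds GU-rich introns, stood at 798 and 1305 CPM in the heavy polysomes of shNSi cells and at 57.3 and 121 in the light ones, a log2 difference of 3.41 (standard error 0.45, edgeR adjusted p = 1.88e-07). HNRNPU, a nuclear scaffold protein, differed by 3.06 (standard error 0.45), and HNRNPUL2, its relative, by 3.01 (standard error 0.38). SNRPG lay at the other end, at 36.4 and 43.3 CPM in heavy and 352 and 214 in light polysomes, a log2 difference of −3.00 (standard error 0.42, edgeR adjusted p = 3.62e-07). For each of these 4 genes, named for their extreme differences, the heavy and the light libraries did not overlap. The share of all genes for which they did not overlap was not counted. SNRPD2 differed by −2.71 (standard error 0.43) and SF3B5, a small subunit of the SF3B complex, by −2.45 (standard error 0.38).

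**Figure D1:**
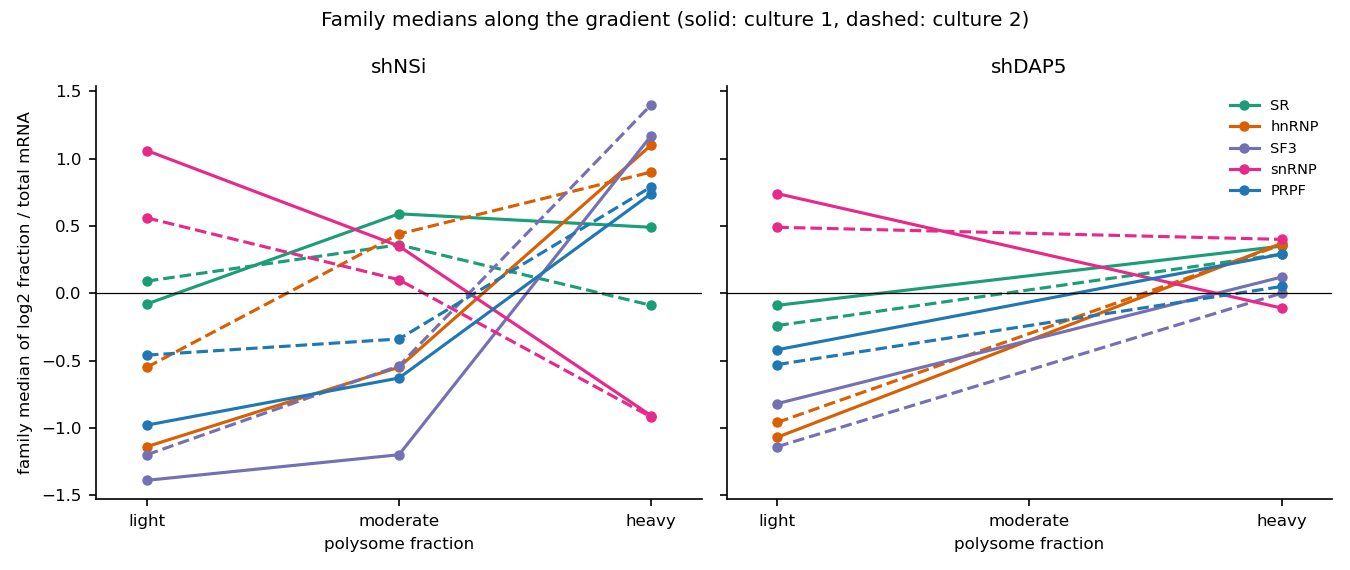
Family medians of the log2 ratio of each polysome fraction to total mRNA, by fraction (x axis) and separately for the cultures of shNSi (left) and shDAP5 cells (right), which have no moderate fraction. In the heavy fraction the SF3 medians are 1.17 and 1.40 in shNSi cells and 0.12 and 0.00 in shDAP5 cells, while the snRNP medians are −0.91 and −0.92 against −0.11 and 0.40 (in edgeR with the moderate fraction as the shNSi control the heavy efficiency medians were 0.84 and −0.18).

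Heavy polysomes answer which splicing factor mRNAs are more or less present on many ribosomes when DAP5 is silenced. Of 67 members 15 fell (22.4%, where 16.7% of all genes did) and 11 rose (16.4%, against 14.2%), by edgeR at an adjusted p under 0.05. Without TMM scaling 11 fell and 13 rose, beside 1139 and 2504 of 14270 genes. With the replicate block 13 fell and 10 rose, beside 2487 and 2223 of all genes. DESeq2 gave 15 and 10, beside 2535 and 1455, and limma 13 and 14, beside 1957 and 1847. The families differed in direction with shNSi heavy polysomes as the control, and 5 of the 6 medians changed sign with the shNSi moderate fraction in their place. The median log2 change was −1.08 for SF3 genes (0.42 with the moderate control), −0.42 for PRPF genes (0.48) and −0.39 for hnRNP genes (0.19). It was 1.16 for snRNP genes (−0.12 with the moderate control) and 0.46 for SR genes (−0.04). The 2 U2AF genes tested had a median of 0.43, which was 0.08 with the moderate control.

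The genes that fell most were large spliceosome proteins. SF3B1, which clamps the branch-site helix of the U2 snRNP, stood at 419 and 755 CPM in the heavy polysomes of shNSi cells and at 144 and 85.8 in those of shDAP5 cells. It fell by 2.17 on the log2 scale (standard error 0.37, edgeR adjusted p = 1.77e-06). PRPF8, the scaffold of the catalytic centre, stood at 619 and 1488 CPM in shNSi cells and at 235 and 211 in shDAP5 cells, and fell by 2.04 (standard error 0.38). SF3B3, an SF3B scaffold, stood at 413 and 790 CPM against 162 and 139 and fell by 1.80 (standard error 0.37). For all 3 genes the lower shNSi culture was above the higher shDAP5 culture, as in 32 of 67 members and 5283 of 14270 genes.

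The genes that rose most encode small proteins. SNRPD2 stood at 134 and 128 CPM in the heavy polysomes of shNSi cells and at 274 and 405 in those of shDAP5 cells, a log2 change of 1.57 (standard error 0.36, edgeR adjusted p = 2.96e-04). SF3B5 stood at 47.7 and 40.4 CPM against 82.6 and 137, a change of 1.51 (standard error 0.33). SNRPD3, another protein of the Sm ring, stood at 79.9 and 76.6 CPM against 149 and 210, a change of 1.38 (standard error 0.34). The groups did not overlap for any of the 3. Both shDAP5 cultures lay above both shNSi cultures in 16 of 67 members and in 4141 of 14270 genes.

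These heavy polysome counts rest on the cultures used. Without shDAP5 culture 2 no member passed in either direction (0 and 0 in edgeR, with 14 lower and 8 higher at an unadjusted p under 0.05). In that fit 1 gene was lower and 1 higher of 14891, and the medians were −1.21 for SF3 genes and 0.81 for snRNP genes. Without shNSi culture 2 these medians were −0.90 and 1.14, and without shNSi culture 1 they were −1.38 and 1.00. With shNSi moderate as the control 0 members were called lower and 0 higher in edgeR, with 0 and 3 at an unadjusted p under 0.05, beside 24 lower and 26 higher of 14539 genes. That control was not run in DESeq2 or limma.

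**Figure D2:**
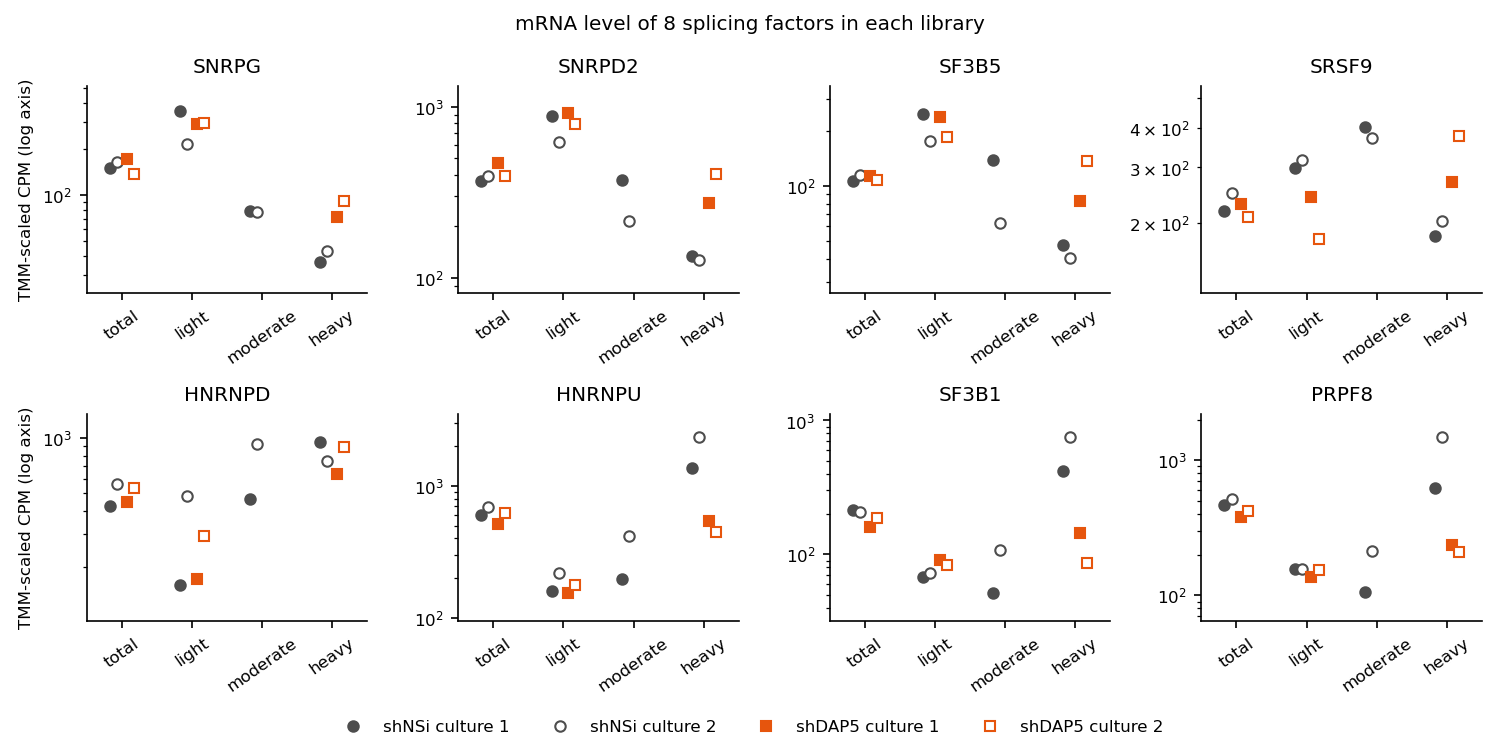
Level of 8 splicing factors in each library, in TMM-scaled CPM on a log axis, by fraction; circles are shNSi and squares shDAP5 cultures, filled for culture 1 and open for culture 2. In heavy polysomes SNRPG lies at 36.4 and 43.3 CPM in shNSi and 71.3 and 91.0 in shDAP5 cells, and SF3B1 at 419 and 755 against 144 and 85.8, while the moderate fraction of shNSi cells holds 78.1 and 77.2 CPM of SNRPG and 51.8 and 107 of SF3B1.

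Translation efficiency is the polysome level of an mRNA relative to its total level in the same culture, and its change in heavy polysomes was tested as the interaction of fraction and shRNA. Of 67 members 13 fell (19.4%, where 8.23% of all genes did) and 8 rose (11.9%, against 4.85%), by edgeR at an adjusted p under 0.05. DESeq2 called 15 lower and 8 higher, beside 1483 and 549 of 15374 genes. With limma 2 were lower and 8 higher, beside 167 and 241, and with the replicate block 4 and 2, beside 519 and 169. Of the 21 members called, 20 were also called by DESeq2, 9 by limma and 6 with the replicate block. Without TMM scaling 0 of 67 were called, with 14 lower and 16 higher at an unadjusted p under 0.05, and the median of all genes moved from 0.09 to 0.30. With no term for each culture 0 of 67 were called, with 16 lower and 10 higher at an unadjusted p under 0.05. In both of these fits 0 of 15374 genes were called. The medians with no culture term were −0.83 for SF3 genes and 1.08 for snRNP genes, beside −0.82 and 1.04 with it.

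Single cultures also decided the number of calls in heavy translation efficiency. Without shDAP5 culture 2, and also without shNSi culture 2, no member was called in edgeR. At an unadjusted p under 0.05 these fits held 16 lower and 7 higher, and 6 lower and 8 higher. Over all genes they called 39 lower and 4 higher of 15914, and 3 lower and 1 higher of 15976. The SF3 median was −0.89 and −0.70 in these fits, and the snRNP median 0.72 and 1.04. Without shNSi culture 1 the medians were −0.97 for SF3 genes and 1.00 for snRNP genes. Without shDAP5 culture 1 they were −0.76 and 1.45. The values by family below are those of the fit with all 4 cultures. In each family the 3 lowest and the 3 highest members of at least 10 CPM have full statistics, 31 genes in all with HNRNPD added and 1 member left out, and other members named were chosen after their values were seen.

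The snRNP proteins stood highest. Of 11 genes 6 rose and 0 fell in heavy translation efficiency, with a median log2 change of 1.04, which was −0.18 with the shNSi moderate fraction as the control. Among the 7 Sm proteins, which form the ring around the snRNA, 5 rose, with a median of 1.21 (−0.15 with the moderate control). SNRPF stood at 56.6 and 82.1 CPM in the heavy polysomes of shNSi cells and at 121 and 194 in those of shDAP5 cells. Its total mRNA was at 157 and 190 against 177 and 156, so the groups overlapped in total and not in heavy polysomes. The translation efficiency of SNRPF rose by 1.36 (standard error 0.35, edgeR adjusted p = 0.0114). SNRPD2 rose by 1.32 (standard error 0.36, adjusted p = 0.0154 in edgeR) and SNRPD3 by 1.21 (standard error 0.34, adjusted p = 0.0174 in edgeR).

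The other snRNP genes spread below these. SNRPC, a U1 protein that helps to define the start of the intron, stood at 182 and 185 CPM in shNSi heavy polysomes and at 282 and 440 in those of shDAP5 cells. It rose in efficiency by 1.04 (edgeR adjusted p = 0.0430). SNRPD1, a further Sm protein, had a change of 0.94 and an adjusted p of 0.0545 in edgeR. The U1 protein SNRPA had a change of 0.44 (standard error 0.36, edgeR adjusted p = 0.426), and the U2 protein SNRPB2 of 0.38 (standard error 0.35, edgeR adjusted p = 0.482). SNRPB, the Sm protein with the longest coding sequence of the 7, stood at 587 and 623 CPM in shNSi and 510 and 720 in shDAP5 heavy polysomes. These groups overlapped, and its change was 0.07 (standard error 0.36, edgeR adjusted p = 0.917).

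SNRPG has the shortest coding sequence of the members with a value, 228 nt without the stop codon, and SF3B5 has 258 nt. Both are shown in full because the change in heavy polysomes followed coding length. They were chosen after their values were seen. SNRPG lies at chr2:70281362-70293771 and SF3B5 at chr6:144094881-144095573, both on the minus strand of GRCh38, and the sequences are those of GENCODE v29 transcripts with the start codon in capitals. In efficiency SNRPG rose by 1.19 (standard error 0.34, edgeR adjusted p = 0.0200).
SNRPG: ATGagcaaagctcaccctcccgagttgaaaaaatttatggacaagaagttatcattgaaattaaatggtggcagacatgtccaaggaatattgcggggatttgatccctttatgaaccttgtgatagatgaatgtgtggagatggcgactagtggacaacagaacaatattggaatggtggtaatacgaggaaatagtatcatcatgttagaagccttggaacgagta
SF3B5: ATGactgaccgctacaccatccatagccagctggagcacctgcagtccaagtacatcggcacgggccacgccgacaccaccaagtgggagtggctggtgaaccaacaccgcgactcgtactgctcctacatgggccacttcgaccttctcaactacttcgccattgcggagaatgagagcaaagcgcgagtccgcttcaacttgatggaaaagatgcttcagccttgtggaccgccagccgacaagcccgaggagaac

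The SF3 complexes divided between large and small subunits. Of 9 genes 4 fell and 2 rose, with a median log2 change of −0.82 that became 0.84 with the shNSi moderate fraction as the control. SF3B1 fell by 1.91 (standard error 0.37, edgeR adjusted p = 0.00570), the lowest value among the members. Its total mRNA was at 213 and 207 CPM in shNSi and 160 and 186 in shDAP5 cells, so most of its lower heavy level lay beyond total mRNA. SF3B3 fell by 1.46 (standard error 0.36, edgeR adjusted p = 0.00868). SF3A1, which docks on U1 during assembly, fell by 1.17 (standard error 0.34, edgeR adjusted p = 0.0220). SF3B2, also a large subunit, fell by 1.16 (adjusted p = 0.0289 in edgeR).

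The subunits that rose are the shortest of the 9 SF3 genes. SF3B5 rose by 1.43 (standard error 0.34, edgeR adjusted p = 0.00849), from total mRNA of 107 and 115 CPM in shNSi and 113 and 108 in shDAP5 cells. SF3B6, the subunit that lies next to the branch adenosine, stood at 81.9 and 64.0 CPM in shNSi and 160 and 172 in shDAP5 heavy polysomes and rose by 1.14 (standard error 0.34, edgeR adjusted p = 0.0228). SF3B4, an RNA-binding subunit of middle length, had a change of −0.30 (standard error 0.35, edgeR adjusted p = 0.607). The subunits of a single complex therefore held both the lowest and the highest change among the 67 members in this fit. With the shNSi moderate fraction as the control SF3B1 had 0.84 and SF3B5 0.18, and neither passed.

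Among PRPF genes 5 fell and 0 rose, of 13, with a median of −0.58 that became 0.37 with the shNSi moderate control. PRPF8 fell by 1.66 (standard error 0.38, edgeR adjusted p = 0.00824), with total mRNA at 464 and 517 CPM in shNSi and 377 and 418 in shDAP5 cells. PRPF4B, a kinase of the tri-snRNP, stood at 121 and 159 CPM in shNSi and 70.4 and 34.2 in shDAP5 heavy polysomes and fell by 1.40 (standard error 0.40, edgeR adjusted p = 0.0248). Its change was −2.09 without shDAP5 culture 1 and −0.71 without shDAP5 culture 2. The heavy groups of both genes did not overlap. PRPF3, a U4/U6 protein, fell by 1.12 and PRPF6, which joins U5 to the tri-snRNP, by 1.00.

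The PRPF genes under 2000 nt ran from −0.69 to 0.28. PRPF38B (1638 nt) had −0.69 (edgeR adjusted p = 0.160) and PRPF4 (1566 nt) had −0.43 (edgeR adjusted p = 0.402). PRPF31, a U4/U6 protein that is mutated in retinitis pigmentosa, had a change of 0.28 (standard error 0.35, edgeR adjusted p = 0.627). The tri-snRNP protein PRPF38A had 0.24 (standard error 0.33, edgeR adjusted p = 0.668), and PRPF18, which acts late in splicing, 0.21 (standard error 0.35, edgeR adjusted p = 0.729). PRPF19, the ubiquitin ligase of its own complex, had −0.08 (edgeR adjusted p = 0.906). The heavy polysome levels of PRPF31 were 220 and 181 CPM in shNSi and 177 and 298 in shDAP5 cells, so the groups overlapped.

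Among hnRNP genes 4 fell and 0 rose, of 21 tested, with a median of −0.42 that became 0.34 with the shNSi moderate control. HNRNPU stood at 1359 and 2366 CPM in shNSi and 544 and 447 in shDAP5 heavy polysomes, and at 602 and 691 against 511 and 621 in total mRNA. It fell by 1.52 (standard error 0.38, edgeR adjusted p = 0.0103). HNRNPM stood at 798 and 1305 CPM against 347 and 314 in heavy polysomes and fell by 1.26 (standard error 0.36, edgeR adjusted p = 0.0198). HNRNPUL2 stood at 137 and 245 CPM against 66.6 and 68.7 and fell by 1.05 (standard error 0.33, edgeR adjusted p = 0.0311). The groups were apart for all 3 genes in heavy polysomes, as they were toward lower in 32 of 67 members and 5283 of 14270 genes. The remaining call, HNRNPUL2-BSCL2, is a read-through symbol that overlaps HNRNPUL2, has a mean of 1.42 CPM in total mRNA and is not separate evidence.

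Several of the most abundant hnRNP mRNAs gave no call. HNRNPA2B1, which sorts RNAs as well as steering splicing, stood at 2723 and 2465 CPM in shNSi and 1702 and 1794 in shDAP5 heavy polysomes, with a change of −0.42 (edgeR adjusted p = 0.489). HNRNPK, a poly(C)-binding protein, stood at 2450 and 1794 CPM against 1160 and 1385, with a change of −0.64 (edgeR adjusted p = 0.254). In both genes the shDAP5 libraries lay below the shNSi libraries in heavy polysomes, without passing the test. HNRNPC had a change of 0.22 (standard error 0.39, edgeR adjusted p = 0.743), HNRNPA0 of 0.18 (standard error 0.35, edgeR adjusted p = 0.773) and HNRNPAB of 0.44 (standard error 0.37, edgeR adjusted p = 0.444). HNRNPD (AUF1), a binder of AU-rich elements that the study used as a control protein, had a change of −0.02 (standard error 0.37, edgeR adjusted p = 0.982), with the sign positive without TMM scaling (0.20) and in limma (0.19). Its heavy levels were 949 and 749 CPM in shNSi and 636 and 888 in shDAP5 cells, which overlapped.

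No SR gene passed in heavy translation efficiency (0 of 11 in edgeR, 0 with DESeq2 and 1 with limma), and 2 were higher at an unadjusted p under 0.05. Other edgeR fits called SR genes higher. With at least 10 counts in every library it was 1, beside 1078 higher of 12999 genes. With the culture numbers of shDAP5 cells swapped in a block it was 2, beside 1758 higher of 15374 genes. Without shDAP5 culture 1 the SR median was 0.15. With all 4 cultures the median was 0.20, which became −0.16 with the moderate control and −0.23 with an offset for coding length. SRSF9, an antagonist of other splicing activators on some exons, stood at 181 and 202 CPM in shNSi and 269 and 379 in shDAP5 heavy polysomes. Its efficiency change was 0.98 (standard error 0.35, edgeR adjusted p = 0.0517), and in heavy polysomes alone it rose by 0.95 (edgeR adjusted p = 0.0298). In that fit it was the only SR gene called, beside 2024 higher of 14270 genes. Limma called 4 SR genes higher, beside 1847 of 14270 genes, and library size without TMM 3, beside 2504. A block with the culture numbers of shDAP5 cells swapped called 3, beside 1702 of 14270 genes. A filter of at least 10 counts in every library called 2, beside 2096 of 13083 genes. No SR gene was called with the replicate block, with no filter and with all 14 libraries in 1 fit. Nor was any called with the length offset or the other control fractions, or without shNSi culture 2, shDAP5 culture 1 or shDAP5 culture 2. SRSF5 had a change of 0.68 (standard error 0.34, edgeR adjusted p = 0.165) and SRSF2, an exonic enhancer binder mutated in blood cancers, of 0.64 (standard error 0.36, edgeR adjusted p = 0.229). At the lower end SRSF11 had −0.58 (standard error 0.33, edgeR adjusted p = 0.236), SRSF4 had −0.50 (standard error 0.33, edgeR adjusted p = 0.319) and SRSF6 had −0.16 (standard error 0.35, edgeR adjusted p = 0.798). SRSF1, the founding member of the family, had 0.08 with heavy levels of 497 and 290 CPM in shNSi and 386 and 425 in shDAP5 cells, which overlapped.

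Of the U2AF genes, U2AF2 and U2AF1L4 could be tested and neither passed in heavy translation efficiency (0 of 2 in edgeR, DESeq2 and limma, and 0 at an unadjusted p under 0.05). U2AF2, the subunit that binds the polypyrimidine tract, stood at 847 and 934 CPM in shNSi and 548 and 736 in shDAP5 heavy polysomes. Its change was −0.32 (standard error 0.36, edgeR adjusted p = 0.587). U2AF1L4, a shorter relative of U2AF1, stood at 2.01 and 2.37 CPM against 3.60 and 4.86 and rose by 1.14 in heavy polysomes (edgeR adjusted p = 0.0387), a call that DESeq2 and limma did not make. Its efficiency change was 0.76 with an edgeR adjusted p of 0.202.

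**Figure D3:**
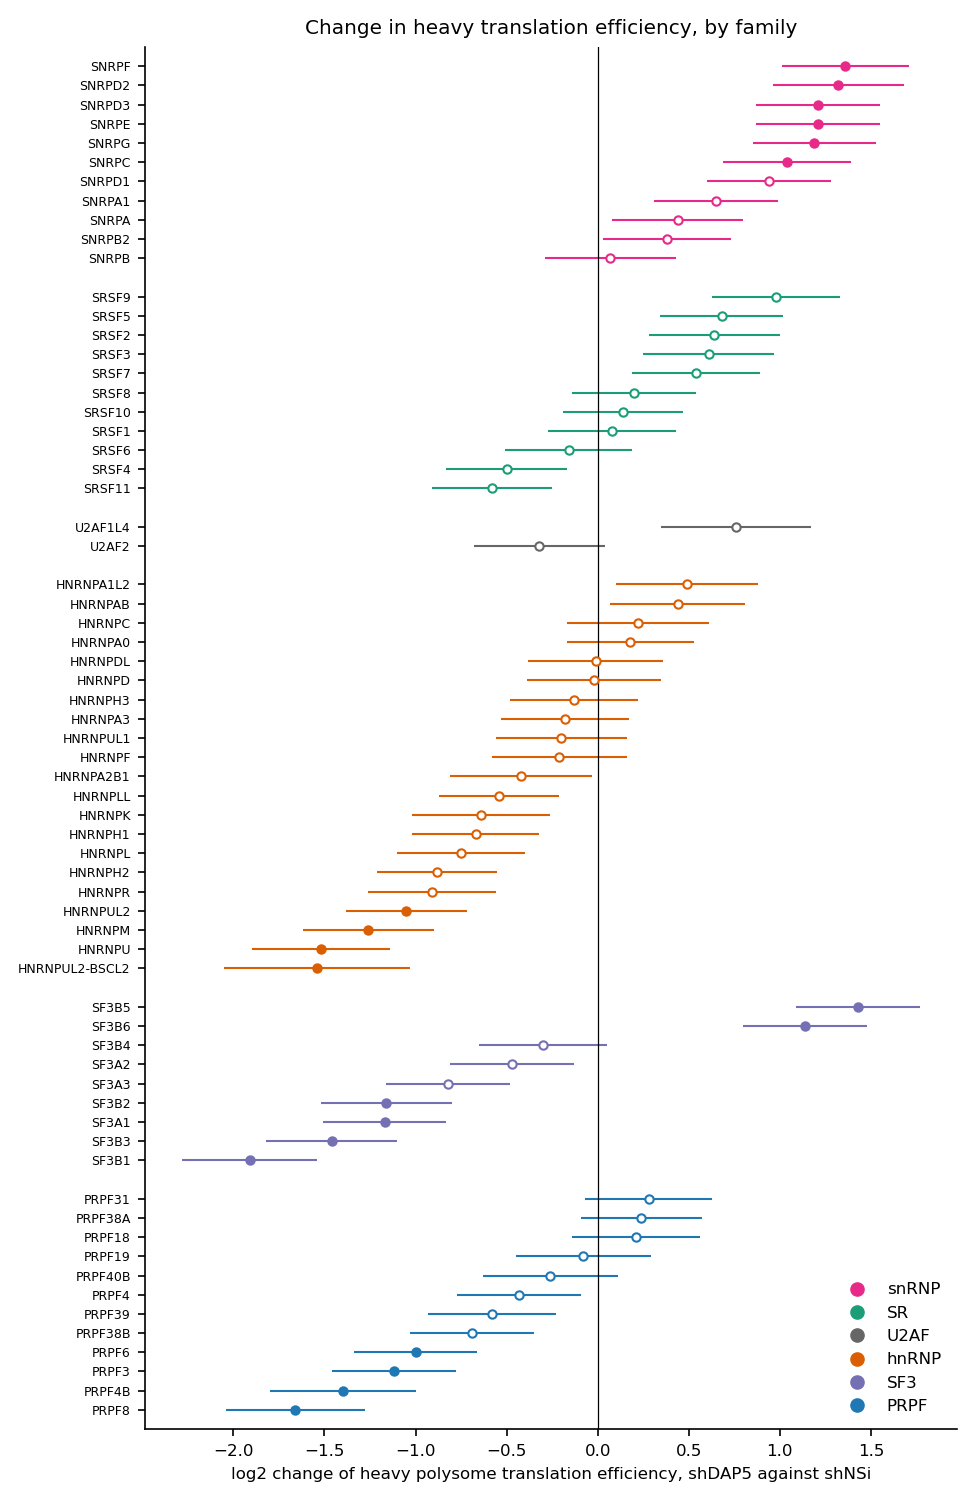
Log2 change of heavy translation efficiency in shDAP5 against shNSi cells for 66 of the 67 members tested, by family; bars are standard errors and filled points passed an adjusted p under 0.05 in edgeR. The snRNP values run from 0.07 to 1.36 and the SF3 values from −1.91 to 1.43; with the shNSi moderate fraction as the control the family medians take the opposite sign.

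Light polysomes answer which of these mRNAs shifted on few ribosomes. No member passed in edgeR (0 of 67, where 0% of all genes did), nor in DESeq2 (0) or limma (0). At an unadjusted p under 0.05 there were 2 of 67, against 8.56% of all genes. PRPF39 was at 27.9 and 18.1 CPM in shNSi and 41.0 and 49.9 in shDAP5 light polysomes, with the highest change of 0.98 (edgeR adjusted p = 0.499). PRPF4B, named after its values were seen, was at 38.4 and 32.9 CPM against 64.9 and 68.8, with a change of 0.90 (edgeR adjusted p = 0.473). For both PRPF genes the groups did not overlap. Both shDAP5 cultures were the higher in 12 of 67 members and in 3354 of 15529 genes. PRPF19 had the lowest change, −0.99 (edgeR adjusted p = 0.612), from 101 and 354 CPM in shNSi and 101 and 130 in shDAP5 cells.

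Light translation efficiency gave no call either, in edgeR (0 of 67, where 0% of all genes passed), DESeq2 (0) or limma (0). At an unadjusted p under 0.05 there were 4 of 67, against 5.22% of all genes. The changes ran from −0.75 for SNRPB (edgeR adjusted p = 0.879) to 0.86 for PRPF4B (edgeR adjusted p = 0.879). The shNSi cultures lay apart in their light libraries. The median log2 ratio of light to total mRNA over members was −0.80 in shNSi culture 1 and −0.27 in culture 2, beside −0.59 in both shDAP5 cultures. Without shNSi culture 1, 23 members passed in light polysomes, beside 2637 lower and 2041 higher of 16190 genes. In light translation efficiency 18 members then passed, beside 1236 lower and 794 higher of 16467 genes. The median change over members without shNSi culture 2 was 0.22 in light polysomes and 0.10 in light translation efficiency. Without shNSi culture 1 these medians were −0.33 and −0.10. What sets these counts and medians was not tested. With the shNSi moderate fraction as the control for light polysomes 22 members passed, 17 lower and 5 higher, beside 2001 lower and 1939 higher of 15431 genes. In light translation efficiency it was 28 members, 21 lower and 7 higher, beside 2181 lower and 2186 higher of 15859 genes.

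The change in heavy polysomes was set against that in light polysomes by an interaction test. Of 67 members 7 differed (10.4%, where 6.75% of all genes did), 7 toward lower in heavy and 0 toward higher. DESeq2 called 12 and 4, beside 1415 and 506 of 15878 genes. The fit without TMM scaling called 5 and 7, beside 642 and 995, with the median of all genes moving from 0.05 to 0.29. With the replicate block 5 were called, beside 625 lower and 153 higher of all genes. SF3B1 differed most, by −2.56 (standard error 0.48, edgeR adjusted p = 0.0175). Its light polysome level was 67.5 and 72.6 CPM in shNSi and 90.4 and 83.9 in shDAP5 cells, so it lay lower in heavy and not in light polysomes. PRPF4B differed by −2.31 (standard error 0.44) and SF3B3 by −2.04 (standard error 0.48). SF3A1 differed by −1.47 and PRPF3 by −1.43. Without shDAP5 culture 2 no member differed (0 in edgeR, 8 at an unadjusted p under 0.05), nor did more than 1 gene in each direction of 16584. Without shDAP5 culture 1 the median difference was −0.72 for SF3 genes and 1.26 for snRNP genes, beside −0.80 and 1.03 with all cultures. Without shNSi culture 1, 12 members were lower and 12 higher, beside 1705 and 1224 of 16453 genes. Without shNSi culture 2, 7 were lower and 5 higher, beside 422 and 325 of 16578 genes.

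What the members share beyond their names is an order by coding length. Across the 66 members with a coding sequence in GENCODE v29, the change in heavy translation efficiency and the coding length had a Spearman rho of −0.93. Over 12477 genes tested it was −0.71. Genes are not independent replicates, and all values come from the same 8 libraries, so this is a description. With any single culture left out the rho over members lay between −0.92 and −0.90. With the shNSi moderate fraction as the control it was 0.76. In all 10 relations with features were computed, 5 over all members and 5 inside families, besides that with coding length in each comparison and setting. Among the 5 features compared after the data were seen, transcript length had a rho of −0.62, the lengths of the 5′ and 3′ untranslated regions 0.01 and −0.13, and the GC content of the coding sequence 0.03.

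The order by length also held inside families. The rho was −0.98 over the 9 SF3 genes, −0.90 over 13 PRPF genes and −0.82 over 20 hnRNP genes. It was −0.76 over 11 SR genes and −0.76 over 11 snRNP genes. Of 10 members with under 500 nt of coding sequence, 8 rose, with a median of 1.20, beside 365 of 1034 genes of that length (35.3%) and a median of 0.88. Of 15 members from 2000 to under 10000 nt, 12 fell, with a median of −1.17, beside 1000 of 3738 genes (26.8%) and a median of −0.70. Between these lengths no member was called in edgeR (0 of 17 from 500 to 1000 nt and 0 of 24 from 1000 to 2000 nt). Among all genes 251 of 2795 were higher in the former class (8.98%), and 208 of 4829 lower (4.31%) and 26 higher in the latter. These length classes were chosen after the data were seen.

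Some members lay off the order. HNRNPUL1, with 2568 nt, had a change of −0.20 (edgeR adjusted p = 0.756), while SF3B2, with 2685 nt, fell by 1.16. PRPF40B, with 2676 nt, had a change of −0.26 at a mean total level of 6.32 CPM. HNRNPUL1 stood at 893 and 980 CPM in shNSi and 686 and 753 in shDAP5 heavy polysomes, groups that did not overlap. At the short end SNRPB (693 nt) had 0.07 and SRSF9 (663 nt) 0.98. These genes were picked out after their values were seen, and the differences between them were not tested.

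With an offset for coding length in each library, most of the calls in heavy translation efficiency were absent. Of the 21 members called, HNRNPUL2-BSCL2 had no coding length and was not in the fit with the offset. Among the others 2 were also called there, HNRNPU (−0.99, edgeR adjusted p = 0.0414) and SF3B1 (−1.10, edgeR adjusted p = 0.0275). No member was higher (0 of 66 in edgeR at an adjusted p, and 0 at an unadjusted p under 0.05), and the offset was not run in DESeq2 or limma. Over all genes the fit with the offset called 191 lower and 150 higher of 12477. The medians became 0.17 for snRNP genes, −0.55 for SF3 genes, −0.24 for PRPF genes and −0.35 for hnRNP genes. That of SR genes went from 0.20 to −0.23, and that of all members from −0.16 to −0.24. Over members the rho with coding length was −0.65 after the offset. Over all genes it was 0.00, which follows from the offset being fitted to coding length over all genes. In heavy polysomes 6 of 66 members were lower and 0 higher with the offset, beside 865 lower and 591 higher of 12133 genes.

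The relation with length can be read in each culture. The rho between coding length and the heavy to total ratio was 0.64 and 0.90 in the shNSi cultures, and 0.08 and −0.36 in the shDAP5 cultures. SF3B1 had a log2 ratio of 0.97 and 1.86 in shNSi cells and −0.15 and −1.11 in shDAP5 cells. SNRPG had −2.02 and −1.90 in shNSi cells and −1.27 and −0.59 in shDAP5 cells. Over 12477 genes the rho was 0.51 and 0.71 in shNSi cells, and 0.27 and −0.34 in shDAP5 cells. In the moderate fraction of shNSi cells the rho was −0.76 and −0.24. The part of the place where each gradient was divided in these differences was not tested, and it cannot be told apart from the shRNA where only 1 of the cell lines has a moderate fraction.

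**Figure D4:**
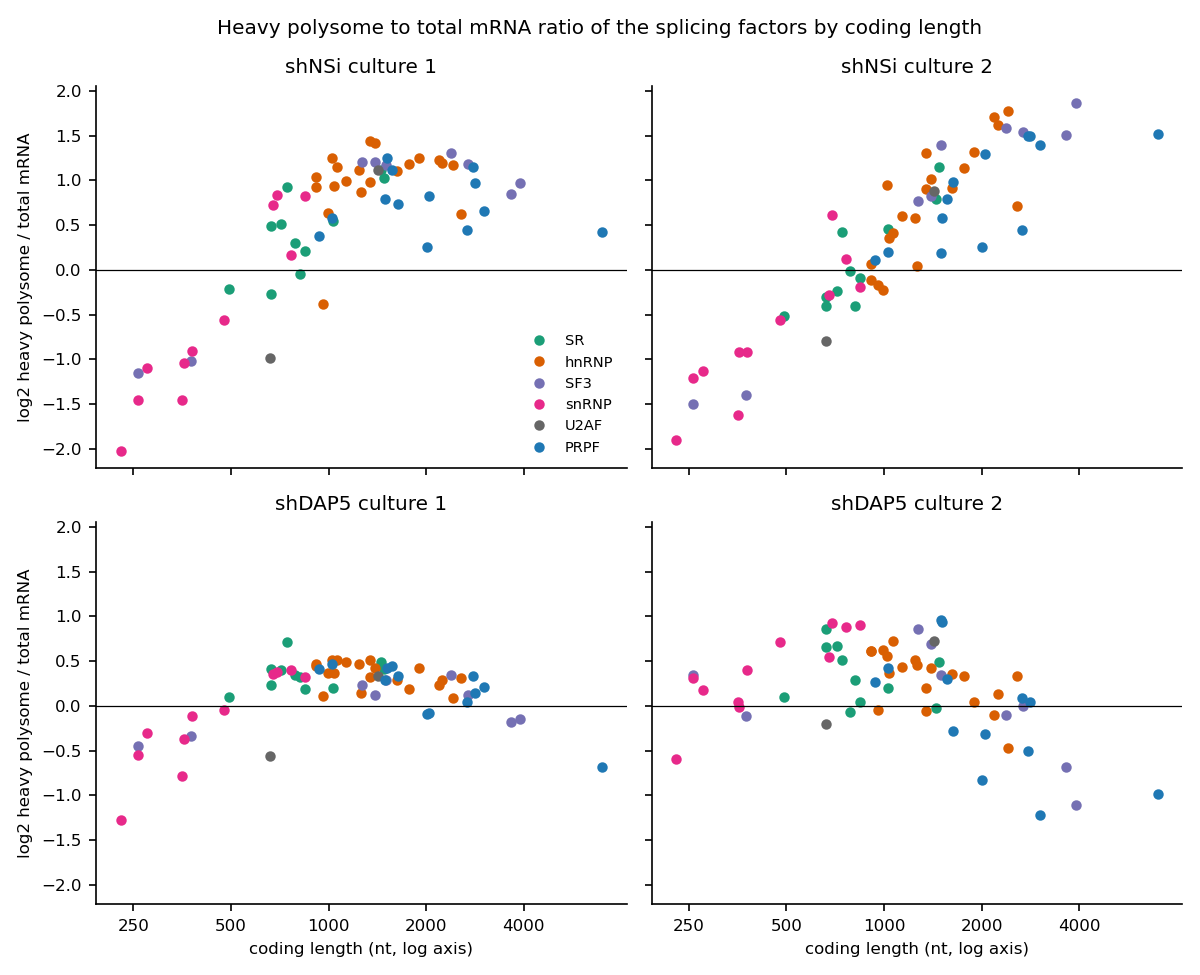
Heavy polysome level over total level on the log2 scale (y axis) against coding length in nt (x axis, log scale) for the 66 members with a coding sequence, 1 panel for each culture, coloured by family. The rho is 0.64 and 0.90 in shNSi cells and 0.08 and −0.36 in shDAP5 cells.

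The direction of the family values in heavy translation efficiency reversed with the moderate control and not with the heavy and moderate counts summed. The heavy level of SF3B1 in shDAP5 cells, 144 and 85.8 CPM, overlapped with the moderate level in shNSi cells, 51.8 and 107. The heavy level of SNRPG in shDAP5 cells, 71.3 and 91.0 CPM, enclosed the moderate level in shNSi cells, 78.1 and 77.2. With shNSi moderate polysomes as the control, 0 of the 21 members were called in heavy translation efficiency, as were 0 of 15434 genes, and 17 of the 21 had the opposite sign. In that fit 0 members were lower and 6 higher at an unadjusted p under 0.05. With the shNSi heavy and moderate counts summed, 0 of 67 were called in edgeR, as were 0 of 15386 genes, with 1 member lower and 1 higher at an unadjusted p under 0.05. The summed control gave medians of 0.34 for snRNP genes and −0.05 for SF3 genes, and 0 of the 21 members had the opposite sign.

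Other genes of the splicing pathway, taken from lists by function, were counted in heavy translation efficiency, where 8.23% of all genes fell and 4.85% rose. Their counts were not matched for coding length. Of 38 other spliceosome core genes 8 fell and 8 rose, with a median of 0.26. Those that fell include SNRNP200, the helicase that unwinds U4 from U6 (−1.58, edgeR adjusted p = 0.00849), and AQR, an intron-binding helicase (−1.73, edgeR adjusted p = 0.00570). Those that rose include LSM2 (1.37, edgeR adjusted p = 0.00993) and LSM6 (1.33, edgeR adjusted p = 0.0110), small proteins of the ring on U6. Of 13 splicing helicases 8 fell and 0 rose, with a median of −1.11, among them DHX15, which takes spent spliceosomes apart (−1.41, edgeR adjusted p = 0.0114).

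Regulators and assembly factors followed. Of 42 other splicing regulators tested 8 fell and 0 rose, with a median of −0.53. SON, a nuclear speckle protein, fell by 1.64 (edgeR adjusted p = 0.00859), and the polypyrimidine tract binder PTBP1 had a change of −0.80 (edgeR adjusted p = 0.135). In the SMN complex, which loads the Sm ring onto snRNA, 3 of 8 fell and 1 rose, with a median of 0.37. GEMIN5, which recognises the snRNA, fell by 1.73 (edgeR adjusted p = 0.00570), while the small subunit GEMIN7 rose by 1.28 (edgeR adjusted p = 0.0154). Of 5 exon junction complex genes 1 rose, MAGOH (1.19, edgeR adjusted p = 0.0191), with a median of 0.81. Of 6 kinases of SR proteins none passed in edgeR (0, with 2 at an unadjusted p under 0.05), with a median of −0.32. In DESeq2 and limma these lists were not counted. With the shNSi moderate control 0 of 15434 genes passed in edgeR, so none of these list calls was made there. Nor was any made without TMM scaling or with no term for each culture (0 of 15374 genes in each). The genes named here were chosen after their values were seen.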

How the data were processed

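The values are gene counts, deposited by the authors as 1 table of 14 libraries. Per the submitters' processing notes, STAR 2.6.0a and hg19 were used, with no role given for either. The sources used here do not say where reads went that match overlapping or near-identical genes. All 58434 symbols were kept, including 27 that had been turned into dates, and 37619 have a gene name in GENCODE v29, which gave the coding lengths and sequences. Library totals ran from 25899838 to 30795910.

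Each comparison was fitted in R 4.3.3 with edgeR 4.0.16 (filterByExpr, TMM, robust quasi-likelihood tests), with p adjusted over all genes tested by Benjamini and Hochberg at 0.05. Translation efficiency was tested as a fraction by shRNA interaction with a term for each culture. Ratios used a pseudocount of 0.5 CPM. Alternatives were DESeq2 1.42.0, limma 3.58.1 on quantile-normalised values (pseudocount 1 CPM), library size without TMM, other filters, a replicate block, a coding length offset, other control fractions and each culture left out. The code was tested on simulated data. Each group has 2 cultures, and the fractions of a culture are not independent of each other. Comparisons that use the same control libraries were not set against each other. Members and lists were chosen with earlier results of these data known.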

Additional observations from a re-analysis of the deposited data

Results flagged for a closer look

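In 7 members, the change in heavy polysomes on silencing DAP5 differed from the change in light polysomes at an adjusted p under 0.05 in edgeR. They drew attention because the difference itself was tested, as an interaction term. SF3B1 had −2.17 in heavy and 0.31 in light polysomes (difference −2.56, standard error 0.48, edgeR adjusted p = 0.0175). PRPF4B had −1.24 and 0.90 (difference −2.31). SF3B3 had −1.80 and 0.20 (difference −2.04). PRPF8 had −2.04 and −0.11 (difference −1.90). These are proteins of the U2 snRNP and the tri-snRNP with long coding sequences. SF3A1 had −1.45 and −0.07 (difference −1.47). PRPF3 had −1.24 and 0.13 (difference −1.43). With a coding length offset 0 of the 7 were called in edgeR, where 0 of 12591 genes were, and the SF3 median was −0.62. With shDAP5 culture 2 left out 0 were also called, where 1 gene was lower and 1 higher of 16584, and the SF3 median was −0.92, beside −0.80 with all cultures. With the shNSi moderate fraction as the control for heavy polysomes the SF3 median in heavy polysomes was 0.42 in place of −1.08, and 20 of the 26 members called there had the opposite sign. The difference between heavy and light was not tested with that control. The cause was not tested.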

How the results depend on the processing

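Counts are of 67 members, or 66 with the coding length offset. With that offset 6 were lower and 0 higher in heavy polysomes, and in heavy translation efficiency 2 were lower and 0 higher. With shNSi moderate as the control heavy polysomes gave 0 and 0, heavy translation efficiency 0 and 0, light polysomes 22 and light translation efficiency 28. With shNSi heavy and moderate summed the counts in heavy polysomes were 1 and 0, beside 337 lower and 84 higher of 15184 genes. In heavy translation efficiency they were 0 and 0. In heavy translation efficiency, library size without TMM gave 0 and 0, limma 2 and 8, no term for each culture 0 and 0, and the replicate block 4 and 2. The offset with the replicate block gave 1 and 0, beside 225 lower and 212 higher of 12477 genes. Heavy and light changes differed in 7 members, 16 with DESeq2, 12 without TMM, 5 with the replicate block and 0 with the offset. EIF4G2 had −1.13 in 1 fit of all libraries. A crossed pairing, chosen after seeing the data, gave 18 lower members and 12 higher in heavy translation efficiency, with 14 differing between heavy and light. Over all genes it called 2375 lower and 1758 higher of 15374 in heavy translation efficiency, beside 1266 and 746 with no block. For heavy against light it called 1570 lower and 668 higher of 15878, beside 827 and 245. The log2 difference between culture 1 and culture 2 in shNSi cells was correlated with that in shDAP5 cells over 16235 genes. The correlation was −0.115 in total mRNA, 0.058 in heavy and 0.05 in light polysomes. It was −0.27 in heavy translation efficiency and 0.007 in light translation efficiency. With a culture left out, the counts ranged 0–15 lower and 0–9 higher in heavy polysomes, 0–23 in light polysomes, 0–17 lower and 0–10 higher in heavy translation efficiency, 0–18 in light translation efficiency and 0–24 for heavy against light; EIF4G2 ranged −1.37 to −0.90. Such a fit assumes that the lone sample varies like the others, and shNSi heavy against light had no residual degrees of freedom, so has no value. In heavy translation efficiency the value of SRSF2 was 0.00 with the moderate control, with no sign at these digits. The sign reversed with the moderate control for SRSF11 (0.36), SRSF4 (0.71), SRSF6 (0.03), SRSF9 (−0.21), HNRNPU (0.96), HNRNPM (1.31), HNRNPUL2 (0.88), HNRNPA0 (−0.09), HNRNPAB (−0.08), HNRNPD (0.18), SF3B1 (0.84), SF3B3 (1.10), SF3A1 (1.28), SF3B4 (0.40), SF3B6 (−0.29), SNRPB (−0.18), SNRPB2 (−0.43), SNRPD3 (−0.15), U2AF2 (0.30), PRPF8 (0.86), PRPF4B (0.67), PRPF18 (−0.07) and PRPF38A (−0.20). It reversed with the summed control for SRSF4 (0.14), SRSF6 (0.04), SF3B4 (0.13), SNRPB2 (−0.02), U2AF2 (0.05) and HNRNPD (0.16). It reversed without TMM for SRSF6 (0.05) and HNRNPD (0.20), and in limma for SRSF6 (0.07) and HNRNPD (0.19). With the offset, with or without the replicate block, it reversed for HNRNPA0 (−0.18), HNRNPC (−0.14), SNRPB (−0.50), SNRPB2 (−0.21), PRPF18 (−0.05) and PRPF38A (−0.10). HNRNPD had 0.03 with at least 10 counts in every library and 0.01 with no term for each culture. With a culture left out, values that crossed 0 ranged −0.25–0.57 for HNRNPA0, −0.35–0.76 for HNRNPC, −0.64–0.04 for SF3B4, −0.24–0.38 for SNRPB, −0.12–0.85 for SNRPB2, −0.06–0.91 for SNRPA, −0.09–0.64 for PRPF31 and −0.39–0.32 for HNRNPD. Other ranges were −2.39 to −1.46 for SF3B1, −1.83 to −1.13 for SF3B3, −2.25 to −1.10 for PRPF8, −2.09 to −0.71 for PRPF4B, 0.87–1.75 for SNRPD2, 0.90–1.82 for SNRPF and 0.99–1.86 for SF3B5. The cause was not tested. Levels are shares of their own library, each group has 2 cultures, and the fractions of shDAP5 cells carry unclear labels. U2AF1 had almost no counts, and why was not tested. No protein, splicing or ribosome footprint was measured in these libraries.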
